A study of Mus musculus with 24 samples.

Results

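Mitochondrial fatty acid oxidation and ketone body metabolism were followed through 30 genes, listed by symbol for their place in the pathway. Of these, 27 had a probe set of their own among the 18194 genes of the arrays. Cpt1b shared its only probe set with other genes, Acsl1 and Ucp2 had no probe set in the annotation used, and these 3 are not analysed here. Each gene was represented by its brightest probe set over all arrays.

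The livers came from male B6C3F1 mice that were 7 to 10 weeks old on arrival. The animals received diethylhexylphthalate (DEHP), a plasticiser and rodent peroxisome proliferator, at 1150 mg/kg/day in corn oil by oral gavage, or corn oil alone, every 24 h for 3 days, and liver was taken at 2, 8, 24 and 72 h. Every control animal was thus given the vehicle, itself a fat, and no undosed group was used here. There were 8 groups, 1 per treatment at each time, with 3 arrays apiece. The design text names 6 mice, and how these relate to the 24 arrays is not stated. Whether the 3 came from different mice is not in the labels, nor is the number of doses before each time. The p-values therefore measure the spread between these samples, which may be technical. Signals are log2 RMA values, differences are DEHP minus corn oil of the same time in log2 units ± SE of the fit with n = 3 arrays a group, and a gene was called where its limma p, adjusted over all 18194 genes, was under 0.05. No depth applies to arrays, and their number limits the precision.

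Fatty acids enter this pathway as acyl-CoA. Carnitine, brought into the cell by Slc22a5, carries the acyl group across the inner mitochondrial membrane with the help of the outer transferase Cpt1a, the carrier Slc25a20 and the inner transferase Cpt2. Acyl-CoA dehydrogenases then open the beta-oxidation spiral and pass electrons through Etfa, Etfb and Etfdh to the respiratory chain. In the liver much of the acetyl-CoA that results is turned into ketone bodies for other organs. Several of these genes are known targets of PPARA, the nuclear receptor that peroxisome proliferators activate in rodents.

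All 7 hepatocyte markers were strongly expressed, with mean log2 signals from 12.99 for Tat to 14.45 for Alb. Some arrays stood apart. The second corn oil array of 8 h had an Actb 3' minus 5' difference, a sign of RNA quality, of 1.46, against 0.50 to 0.82 on the other arrays. The first corn oil array of 72 h carried the highest neutrophil (0.86) and muscle (1.34, with 1.33 on the first corn oil array of 8 h) marker means, given as the deviation from the mean over all arrays, and a high exocrine pancreas mean (1.89). That pancreas mean was highest, at 3.03, on the first DEHP array of 2 h. The titles give the same RC number, 14, to 2 arrays of 8 h, corn oil replicate 3 and DEHP replicate 2; without both, 8 of the 9 calls of 8 h were kept and that of Decr1 was lost (0.51, adjusted p = 0.115). Values with and without these arrays are given for several of the results that rest on them. In whole liver, fewer cells of a type and less RNA per cell cannot be told apart.

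Promoter windows, from 250 bases before to 50 after the RefSeq start site (GRCm38.p6), were matched by symbol for 23 of the 27 genes. They are shown for the gene with the largest early difference, a carnitine gene that was not called, a dehydrogenase called at 3 times, and a pair of genes that share a promoter. All run 5' to 3' on the strand of the gene, in lower case, with matches to the receptor motif AGGTCA on either strand in capitals.
Slc22a5, chr11:53891654-53891953, minus strand: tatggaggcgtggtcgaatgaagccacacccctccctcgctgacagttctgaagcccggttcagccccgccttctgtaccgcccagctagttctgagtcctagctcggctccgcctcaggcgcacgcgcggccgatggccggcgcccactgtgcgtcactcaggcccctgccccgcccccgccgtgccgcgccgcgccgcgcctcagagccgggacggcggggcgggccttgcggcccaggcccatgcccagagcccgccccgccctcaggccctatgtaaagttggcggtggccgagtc
Cpt1a, chr19:3323051-3323350, plus strand: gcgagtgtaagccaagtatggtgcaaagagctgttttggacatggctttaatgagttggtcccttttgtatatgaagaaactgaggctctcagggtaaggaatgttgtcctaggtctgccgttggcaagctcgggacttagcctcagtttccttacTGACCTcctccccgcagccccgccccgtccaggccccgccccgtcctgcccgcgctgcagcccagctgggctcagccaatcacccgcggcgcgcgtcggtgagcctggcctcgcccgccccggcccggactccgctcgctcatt
Acadm, chr3:153944594-153944893, minus strand: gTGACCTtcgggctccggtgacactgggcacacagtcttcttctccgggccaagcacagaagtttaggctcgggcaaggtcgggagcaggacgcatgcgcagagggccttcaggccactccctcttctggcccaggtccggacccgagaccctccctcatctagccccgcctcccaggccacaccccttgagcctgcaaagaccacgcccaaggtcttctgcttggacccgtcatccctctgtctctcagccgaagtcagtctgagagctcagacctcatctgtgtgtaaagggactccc
Hadha and Hadhb, shared stretch, chr5:30155003-30155230, plus strand: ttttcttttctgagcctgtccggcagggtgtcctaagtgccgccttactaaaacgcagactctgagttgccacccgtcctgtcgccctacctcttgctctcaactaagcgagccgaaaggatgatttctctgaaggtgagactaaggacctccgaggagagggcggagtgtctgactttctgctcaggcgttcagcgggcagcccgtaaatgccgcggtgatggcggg

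Hadha and Hadhb, which encode the 2 subunits of the mitochondrial trifunctional protein, lie head to head with start sites 273 bases apart, and 228 bases of their windows are the same DNA. The PPAR direct repeat, which joins a pair of copies of this motif with a base between them, was searched on both strands with one free base inside each copy and was in the window of 0 of the 23 genes, against 0.45% of all genes with a window. The single motif AGGTCA, searched on both strands and able to overlap the repeat, was in the windows of 6 of them, Acadm, Acadvl, Cpt1a, Echs1, Pcca and Ucp3, or 26.1% against 18.13% of all genes. Of these 6, Acadm and Acadvl were called higher at 1 or more times, as were 2.57% of all genes. Of all 27 members, 13 were called at no time. Whether the motif goes with the calls was not tested. The windows are short, and a missing match says only that these letters are not there.

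Across the whole set the calls went one way: 28 differences of gene and time were called, all higher with DEHP, and 80 were not. At 2 h 2 of 27 genes were called higher, against 0.616% of all genes called higher and 0.83% called in either direction. At 8 h the count was 9, against 1.28% higher and 4.13% in either direction. At 24 h it was 8 (0.253% and 0.297%) and at 72 h 9 (1.13% and 4.18%). No member was called lower, where 0.214%, 2.86%, 0.044% and 3.05% of all genes were at the 4 times. The median difference of the 27 genes was 0.004, 0.15, 0.31 and 0.30 at 2, 8, 24 and 72 h, and the median of all genes lay between -0.03 and -0.0035. All DEHP arrays lay above all corn oil arrays in 10, 12, 16 and 16 members at the 4 times, against 4.67%, 5.44%, 6.38% and 10.1% of all genes. They lay below in 3, 2, 0 and 0, against 6.72%, 13.1%, 7.47% and 18.1%. By gene, 14 of 27 were called higher at 1 or more times, against 2.57% of all genes. Of these 5 were called at 3 times (Acadl, Acadm, Hadha, Hadhb and Decr1), as were 0.143% of all genes at 3 or more, and 13 members were called at none. Both calls of 2 h, Slc22a5 and Cpt2, were in carnitine transport, and no test compared the steps with each other.

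**Figure D1:**
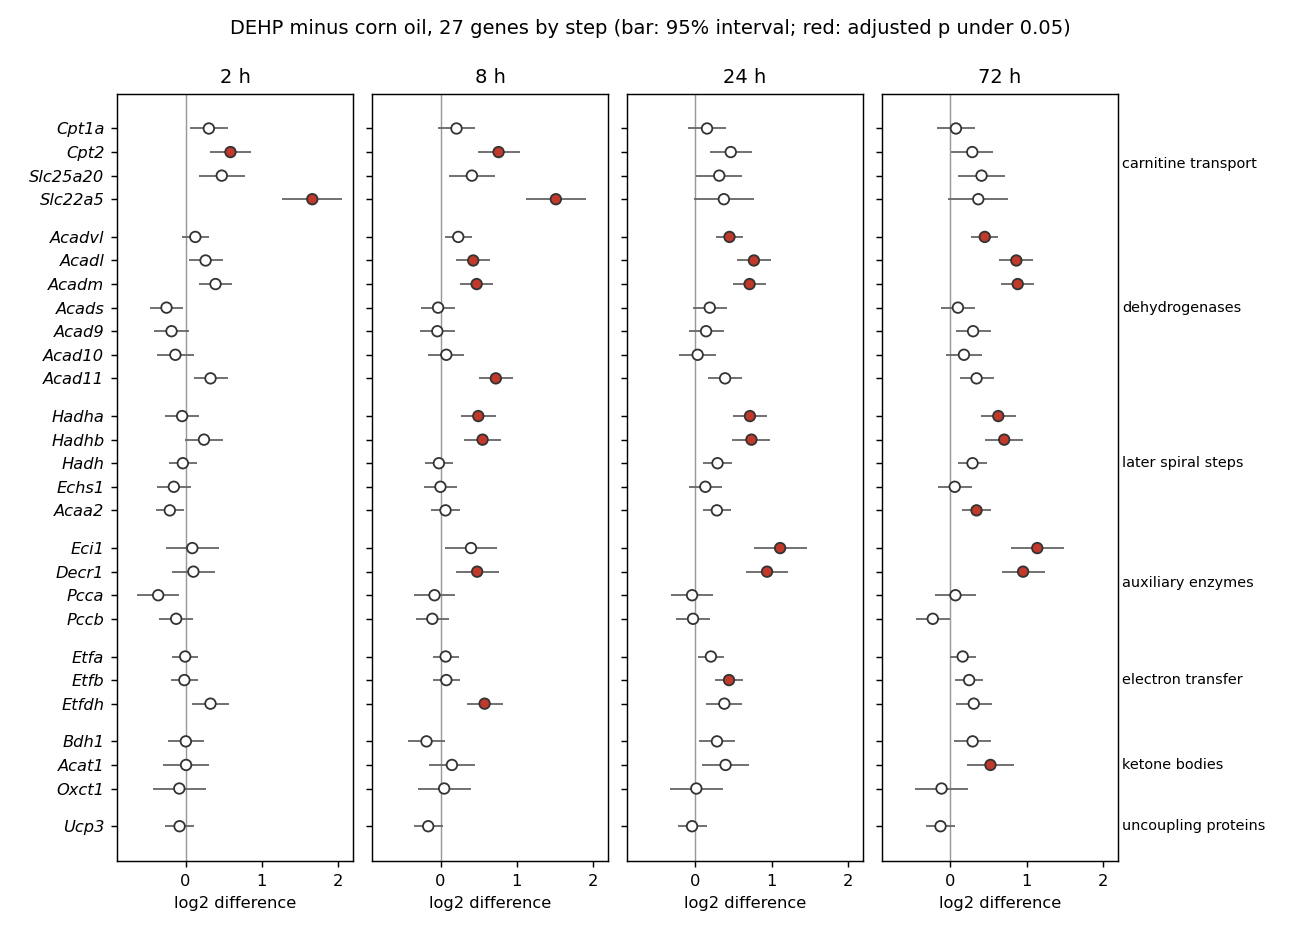
Difference between DEHP and corn oil (log2, points, with the 95% interval of the fit as bars) for 27 genes ordered by step of the pathway, in 1 panel for each time; red points were called. Slc22a5 and Cpt2 are red at 2 and 8 h only, while Acadl, Acadm, Hadha, Hadhb and Decr1 are red from 8 to 72 h and Eci1 at 24 and 72 h.

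The plot of differences by step sets out the carnitine genes first. Slc22a5, the plasma membrane transporter that brings carnitine into the cell, read 8.95, 9.07 and 8.60 on the corn oil arrays of 2 h and 10.87, 10.02 and 10.73 on the DEHP arrays. At 8 h the corn oil arrays read 10.08, 10.28 and 9.94 and the DEHP arrays 11.61, 11.76 and 11.47. The groups did not overlap at either time. It rose by 1.66 ± 0.19 at 2 h (3.17-fold, adjusted p = 2.89e-05) and by 1.51 ± 0.19 at 8 h (2.86-fold, adjusted p = 3.28e-05), and both calls held without any 1 array. By 24 and 72 h the differences were 0.37 ± 0.19 (adjusted p = 0.637) and 0.37 ± 0.19 (adjusted p = 0.272), and the groups overlapped. A second probe set of Slc22a5 gave 1.71, 2.09, 0.30 and 0.50 at the 4 times.

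Cpt2, the inner transferase that hands the acyl group back to coenzyme A, read 11.07, 11.16 and 11.03 with corn oil and 11.63, 11.58 and 11.81 with DEHP at 2 h. At 8 h it read 11.30, 11.40 and 11.54 against 12.16, 12.18 and 12.19. All DEHP arrays lay above the corn oil arrays at both times. It rose by 0.59 ± 0.13 at 2 h (adjusted p = 0.0325) and by 0.76 ± 0.13 at 8 h (1.70-fold, adjusted p = 0.00129). The 2 h call was lost without any 1 array other than DEHP replicate 2, with differences from 0.52 to 0.64 over the 6 fits, and with the mean of both its probe sets (0.41, adjusted p = 0.147). Differences at 24 and 72 h were 0.46 and 0.29 (adjusted p = 0.263 and 0.213).

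The carrier Slc25a20, which exchanges acylcarnitine for carnitine across the inner membrane, was called at no time, at 0.48, 0.41, 0.31 and 0.41 (adjusted p from 0.11 to 0.606). Its DEHP arrays did lie above the corn oil arrays at 2 and 8 h, a separation that 4.67% and 5.44% of all genes showed. Its dimmer second probe set stood at 0.70 at 8 h (adjusted p = 0.00278 over all probe sets), and the mean of the 2 was called there (0.56, adjusted p = 0.0145). Cpt1a, the outer transferase whose inhibition by malonyl-CoA controls entry into the pathway, had small differences of 0.31, 0.21, 0.15 and 0.07 ± 0.12. Its 95% intervals ended at 0.55, 0.46, 0.40 and 0.32. The dimmer probe sets of Cpt1a, also uncalled, gave 0.55 and 0.52 at 2 h and 0.26 and 0.34 at 72 h, of which 0.34 lies above the interval of the brightest.

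**Figure D2:**
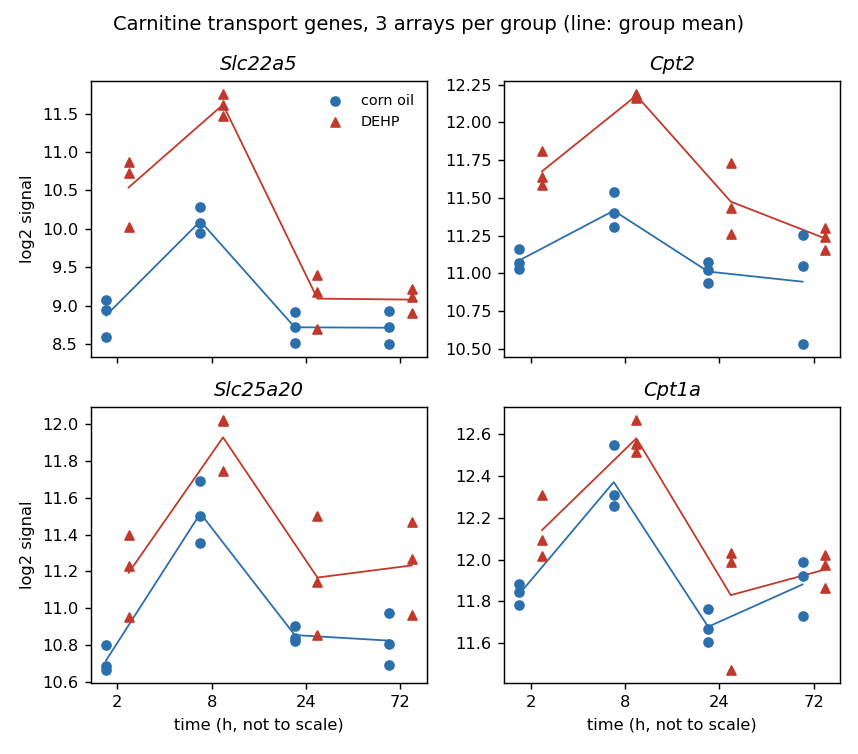
Log2 signal of each array (corn oil circles, DEHP triangles, 3 per group, line through the group means) at 2, 8, 24 and 72 h for 4 carnitine transport genes; each panel has its own axis. Corn oil arrays of Slc22a5 rise from between 8.60 and 9.07 at 2 h to between 9.94 and 10.28 at 8 h and fall back by 24 h, and the DEHP arrays lie above them at the first 2 times.

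The plot of carnitine genes shows that the vehicle level of this step changed with the time of sampling. In corn oil livers 3 of 27 genes differed between times by the F test of limma (3.55% of all genes), and all 3 were carnitine genes: Slc22a5 (adjusted p = 0.000178), Cpt1a (0.00541) and Slc25a20 (0.0057). From 2 to 8 h they rose by 1.23 ± 0.19, 0.54 ± 0.12 and 0.80 ± 0.15, and from 8 to 24 h they fell by 1.38, 0.69 and 0.66, steps at which 4.06% and 2.57% of all genes were called. None was called from 24 to 72 h (0.011% of all genes). Cpt2 had the same shape, at 0.33 and -0.40, without a call (F test adjusted p = 0.128). The call of Slc25a20 was lost without the second corn oil array of 8 h (adjusted p = 0.0731) and with the Actb difference as a covariate (adjusted p = 0.219), and that of Cpt1a without both arrays that carry the RC number 14, of which 1 is a corn oil array (adjusted p = 0.0541). No gene of the other steps was called between times in corn oil, where the F test gave adjusted p from 0.239 to 0.987.

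Among the acyl-CoA dehydrogenases, 4 of 7 were called higher at 1 or more times (2.57% of all genes): Acadm, Acadl, Acadvl and Acad11. Acadm, the medium-chain enzyme, read 12.31, 12.42 and 12.41 with corn oil and 12.86, 12.80 and 12.91 with DEHP at 8 h. At 72 h it read 11.99, 12.25 and 12.32 against 13.16, 13.03 and 13.02. The groups were apart at every time, including 2 h, where the difference of 0.39 ± 0.10 was not called (adjusted p = 0.0891). After median centring the 2 h value was called (0.41, adjusted p = 0.0492). Acadm rose by 0.47, 0.71 and 0.88 ± 0.10 at 8, 24 and 72 h (adjusted p = 0.0084, 0.000939 and 3.23e-05), the last being 1.84-fold. Without DEHP replicate 3 the 8 h value was 0.45 and the call was lost (adjusted p = 0.0506).

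Acadl, the long-chain enzyme of rodent mitochondria, followed nearly the same course. Its arrays read 11.49, 11.53 and 11.46 with corn oil and 12.12, 12.38 and 12.28 with DEHP at 24 h, with no overlap. It rose by 0.43 ± 0.11 at 8 h (adjusted p = 0.0221), 0.77 ± 0.11 at 24 h (adjusted p = 0.000634) and 0.86 ± 0.11 at 72 h (1.82-fold, adjusted p = 5.68e-05). Of the 3 calls, that of 8 h alone depended on single arrays. Leaving out the first corn oil array gave 0.32, DEHP array 1 gave 0.43 and DEHP array 3 gave 0.42, none of them called. It was also lost with the mean of both probe sets (0.19, adjusted p = 0.174), since a second, much dimmer probe set gave -0.04 at 8 h and 0.40 at 72 h. Acadvl, the very-long-chain enzyme of the inner membrane, rose by 0.45 ± 0.09 at both 24 h (adjusted p = 0.018) and 72 h (adjusted p = 0.00562), from 0.13 and 0.23 at the earlier times. The call of 24 h did not survive the loss of corn oil array 1 or 3, or of DEHP array 2 or 3, and the 6 fits ran from 0.38 to 0.51.

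Acad11, a further member of the family, was called at 8 h alone. It read 11.84, 12.02 and 12.04 with corn oil there and 12.69 on each of the DEHP arrays. The rise of 0.73 ± 0.11 (1.65-fold, adjusted p = 0.000221) stood beside 0.33, 0.39 and 0.34 at 2, 24 and 72 h, where the arrays were also apart but no call was made. Its 72 h value was called with the replicate number as a block (adjusted p = 0.0471) and after quantile normalization (0.0350), and its 24 h value without DEHP replicate 1 (0.52, adjusted p = 0.0272). Acads, the short-chain enzyme, stood at -0.25, -0.03, 0.19 and 0.10 ± 0.11, and Acad10 between -0.13 and 0.18. Acad9, which also serves the assembly of respiratory complex I, stood at 0.30 ± 0.11 at 72 h (adjusted p = 0.124), with all DEHP arrays above the corn oil arrays, and at 0.53 (adjusted p = 0.0216) by a second probe set.

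Of the later steps of the spiral, 3 of 5 genes were called higher at 1 or more times (2.57% of all genes). They were both subunits of the membrane-bound trifunctional protein and the soluble thiolase Acaa2. Hadha, the alpha subunit of the trifunctional protein with the hydratase and dehydrogenase activities, read 11.55, 11.57 and 11.43 with corn oil and 11.47, 11.60 and 11.35 with DEHP at 2 h, which overlap. By 24 h the DEHP arrays, at 12.15, 12.46 and 12.17, lay above the corn oil arrays, at 11.54, 11.71 and 11.39. Hadha stood at -0.04 at 2 h (adjusted p = 0.962) and rose by 0.50, 0.71 and 0.63 ± 0.11 at 8, 24 and 72 h (adjusted p = 0.00889, 0.00147 and 0.00243).

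Hadhb, the thiolase subunit of the same complex, read 11.55, 11.45 and 11.77 with corn oil and 12.20, 12.09 and 12.13 with DEHP at 8 h. It stood at 0.24 ± 0.12 at 2 h (adjusted p = 0.611) and rose by 0.55, 0.73 and 0.71 ± 0.12 afterwards (adjusted p = 0.00801, 0.00307 and 0.00207). From 8 h on the differences of these 2 head-to-head genes lay less than 1 SE apart. The 8 h call of Hadhb was lost without the corn oil array of high Actb difference (0.48, adjusted p = 0.0576), and its 24 h call with the mean of its 3 probe sets (0.34, adjusted p = 0.213), of which the dimmest stood at -0.27.

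Acaa2, the soluble thiolase that releases acetyl-CoA, stood at -0.21 at 2 h and 0.07 at 8 h, and rose by 0.34 ± 0.09 at 72 h (adjusted p = 0.0328). Its other probe sets gave 0.19 and 0.43 at 8 h and 0.35 and 0.28 at 72 h. The 72 h call was lost without any 1 array other than corn oil replicate 3, with values from 0.27 to 0.39, the lowest being without the first corn oil array of 72 h. Hadh, the soluble hydroxyacyl-CoA dehydrogenase, stood at -0.04 and -0.02 at 2 and 8 h and at 0.29 ± 0.09 at both 24 and 72 h, uncalled (adjusted p = 0.327 and 0.0676). The 72 h value of Hadh was called with a filter on dim genes (adjusted p = 0.0484) and after median centring (0.32, adjusted p = 0.0416). Its DEHP arrays of 72 h, at 13.46, 13.45 and 13.46, all lay above the corn oil arrays, at 13.01, 13.26 and 13.23. Echs1, the short-chain hydratase, was called at no time and stood between -0.15 and 0.13.

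**Figure D3:**
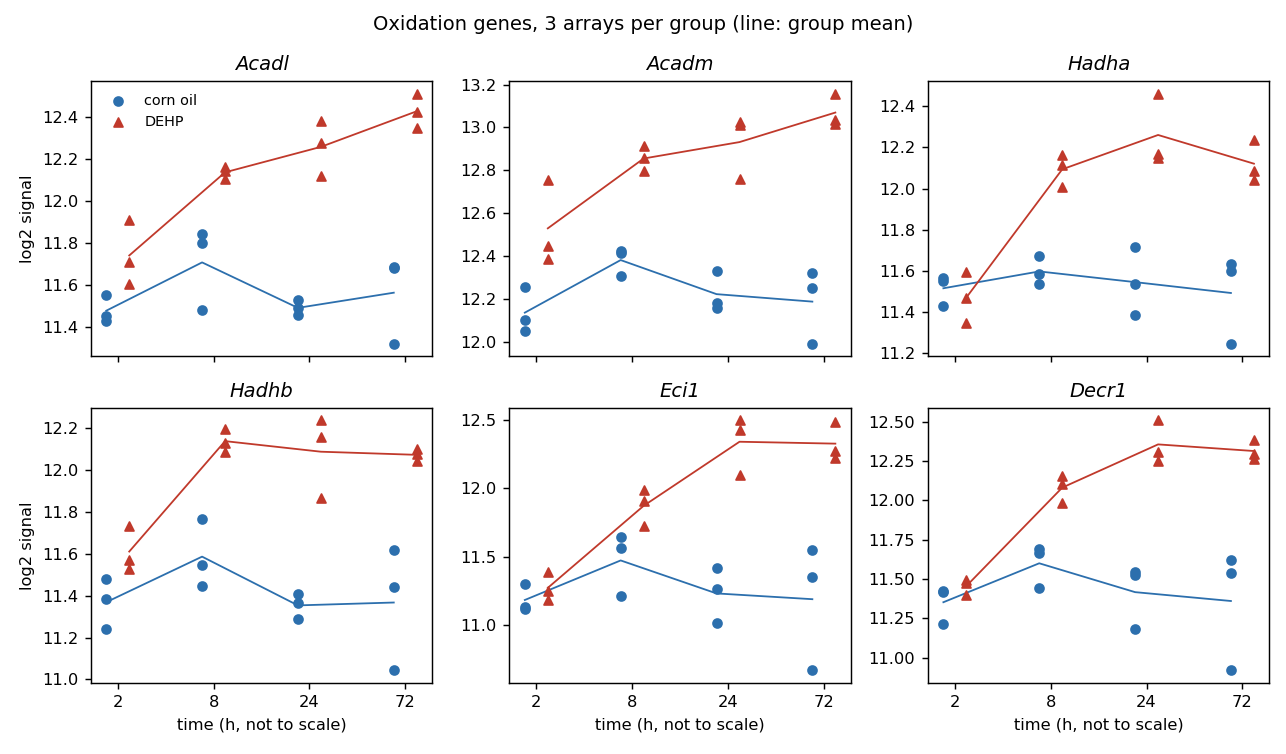
Log2 signal of each array (corn oil circles, DEHP triangles, 3 per group, line through the group means) at 2, 8, 24 and 72 h for 6 oxidation genes; each panel has its own axis. The groups overlap at 2 h for Hadha, Eci1 and Decr1 and are apart for all 6 genes at 8, 24 and 72 h; the lowest corn oil point of 72 h is replicate 1 in each panel.

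Unsaturated fatty acids need auxiliary enzymes, and 2 of these had the largest late differences of the whole set, as the plot of oxidation genes shows. Eci1, the isomerase that moves a double bond into place for the spiral, read 11.26, 11.42 and 11.01 with corn oil and 12.10, 12.50 and 12.43 with DEHP at 24 h. At 72 h it read 10.67, 11.35 and 11.55 against 12.49, 12.28 and 12.22. It rose by 1.11 ± 0.17 at 24 h (2.16-fold, adjusted p = 0.00122) and by 1.14 ± 0.17 at 72 h (adjusted p = 0.000407), after 0.09 at 2 h and 0.40 at 8 h (adjusted p = 0.951 and 0.218). Without the low first corn oil array of 72 h the 72 h value was 0.88 and the call held.

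Decr1, the dienoyl-CoA reductase of the same route, read 11.52, 11.54 and 11.18 with corn oil and 12.25, 12.51 and 12.31 with DEHP at 24 h. It rose by 0.94 ± 0.14 at 24 h (1.92-fold, adjusted p = 0.000875) and 0.95 ± 0.14 at 72 h (1.94-fold, adjusted p = 0.000308). Its 8 h rise of 0.48 ± 0.14 (adjusted p = 0.0463) was lost in each of the 6 fits without 1 array, with values from 0.40 to 0.53. The 2 probe sets of Decr1 disagreed early: the dimmer one stood at 0.64 at 2 h (adjusted p = 0.0488 over all probe sets) and 0.96 at 8 h, against 0.10 and 0.48 for the brighter one. At 24 and 72 h they stood at 0.81 and 0.78 against 0.94 and 0.95. Pcca and Pccb, the subunits of propionyl-CoA carboxylase, which handles the product of odd chains, were called at no time and stood between -0.36 and 0.07. Without the first corn oil array of 72 h Pccb was called lower there (-0.37, adjusted p = 0.0308).

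The electron transfer genes were called higher once or not at all, where 2.57% of all genes were called higher at 1 or more times. Etfdh, the oxidoreductase that feeds electrons into the respiratory chain, read 10.99, 11.09 and 11.39 with corn oil and 11.74, 11.68 and 11.80 with DEHP at 8 h, without overlap. It rose by 0.58 ± 0.11 there (1.49-fold, adjusted p = 0.00387) and stood at 0.33, 0.38 and 0.31 at the other times. A second, very dim probe set gave 0.63 at 8 h and -0.09 and -0.06 at 24 and 72 h. Etfb, the smaller subunit of the flavoprotein, rose by 0.44 ± 0.09 at 24 h (adjusted p = 0.0211), and stood at -0.02, 0.08 and 0.25 otherwise. Its call failed in 4 of the 6 fits without 1 array, those lacking corn oil array 1, corn oil array 3, DEHP array 2 or DEHP array 3 (0.42 to 0.44). Etfa, the larger subunit, stood at -0.005, 0.07, 0.20 and 0.16 ± 0.08.

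Ketone body genes had 1 call, at 72 h, where 1.13% of all genes were called higher. Acat1, the mitochondrial thiolase that joins or splits acetoacetyl-CoA, read 11.59, 12.09 and 12.31 with corn oil and 12.64, 12.50 and 12.44 with DEHP at 72 h. It rose by 0.53 ± 0.15 (adjusted p = 0.0434), and the value was 0.32 without the low first corn oil array (adjusted p = 0.155). The call was also lost with the mean of its 3 probe sets (0.55, adjusted p = 0.0704) and with the Actb covariate (0.52, adjusted p = 0.0575). Its other probe sets gave 0.56 and 0.57 at 72 h, uncalled over all probe sets (adjusted p = 0.0616 and 0.151). Of the 6 fits without 1 array, the call held in the one lacking corn oil replicate 3. Bdh1, which reduces acetoacetate to hydroxybutyrate, stood at 0.004, -0.18, 0.28 and 0.29 ± 0.12 and was called at no time. Its DEHP arrays lay below the corn oil arrays at 8 h (13.1% of all genes, adjusted p of Bdh1 = 0.508). They lay above them at 72 h (10.1% of all genes, adjusted p of Bdh1 = 0.146). Oxct1, the enzyme with which other organs use ketone bodies and which hepatocytes are known to lack, gave a dim signal of 5.53 to 6.54 on all arrays and differences from -0.12 to 0.05. Ucp3, an uncoupling protein best known from muscle and brown fat, was similarly dim (6.21 to 6.66) and stood between -0.16 and -0.04.

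Whether the differences changed with time was tested directly. By the F test over the 4 times, 4 of 27 genes were called (2.08% of all genes): Slc22a5 (adjusted p = 0.00632), Eci1 (0.0231), Hadha (0.0244) and Decr1 (0.0305). No step from one time to the next was called in any member, against 0.418%, 0.467% and 0.022% of all genes for the 3 steps. The change of Slc22a5 from 8 to 24 h, at -1.14 ± 0.27, came closest (adjusted p = 0.06). A contrast of the mean difference at 24 and 72 h with that at 2 and 8 h, chosen with the single times known, called 6 members (1.74% of all genes). Of these 5 were larger late (0.747% of all genes): Eci1 by 0.88 ± 0.17 (adjusted p = 0.00678), Decr1 by 0.65 ± 0.14 (0.0122), Acadl by 0.47 ± 0.11 (0.0234), Acaa2 by 0.38 ± 0.09 (0.0271) and Hadha by 0.45 ± 0.11 (0.0358). Slc22a5 was the one member called larger early (0.989% of all genes), at -1.22 ± 0.19 (adjusted p = 0.00132). Cpt2, also called early and not late, had a contrast of -0.30 ± 0.13 that was not called (adjusted p = 0.299), and neither had Acad11 (-0.16) or Etfdh (-0.11).

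**Figure D4:**
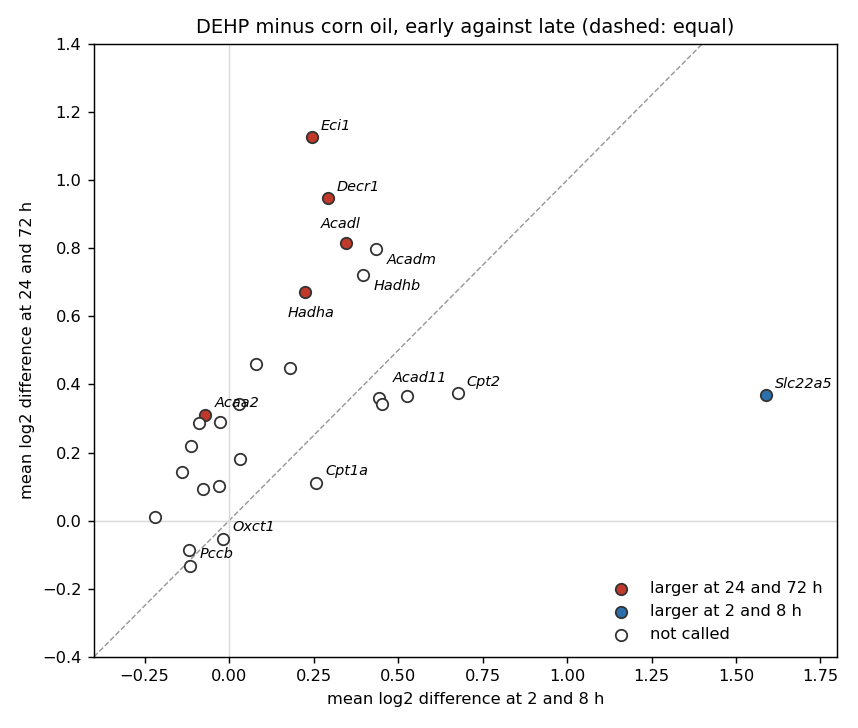
Mean log2 difference between DEHP and corn oil at 24 and 72 h against that at 2 and 8 h for 27 genes, 1 point each; the dashed line marks equal values and filled points were called in the contrast of late with early times. Eci1 (0.24 early, 1.13 late) and Slc22a5 (1.59 early, 0.37 late) lie farthest from the line on either side.

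These calls rest in part on single arrays. Without the first DEHP array of 2 h, the one with the high pancreas markers, the F test called 1 member, Slc22a5, in place of 4, and the contrast 3 in place of 6. The F count was 2 when any of 3 other arrays of 2 h was left out: the first and the second with corn oil, and replicate 3 with DEHP. The contrast count was also 3 without DEHP replicate 2 of 24 h. Slc22a5 was called in each of these fits and by both tests, and the contrast called Eci1 and Decr1 in each of the 24 fits without 1 array. Acadl, Hadha and Acaa2 each lost the contrast call in some of the 24 fits. They lost it too with the Actb covariate (adjusted p = 0.0632, 0.0546 and 0.0814) and without both arrays numbered 14 (0.0684, 0.0954 and 0.073). With the mean of its probe sets the contrast of Acaa2 was 0.26 (adjusted p = 0.123). With the mean of its probe sets the contrast of Decr1 was 0.32 (adjusted p = 0.233), and its F test was not called (adjusted p = 0.305). The F call of Decr1 was also lost with the Actb covariate (adjusted p = 0.0553), without DEHP replicate 2 of 24 h and without any 1 DEHP array of 72 h.

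Of 39 further genes of the pathway, 36 were measured, and at 2 h 5 of them were called higher (0.616% of all genes). At 8 h 3 were called higher (1.28%) and 1 lower (2.86%), and 2 were called higher at each of 24 h (0.253%) and 72 h (1.13%). Acot2, a mitochondrial thioesterase that releases free fatty acid from acyl-CoA, rose by 1.01, 2.28, 1.70 and 1.83 ± 0.24 at the 4 times. Eci2, an isomerase found in peroxisomes and mitochondria, rose by 0.79, 0.70 and 0.69 ± 0.15 at 2, 24 and 72 h. At 8 h it stood at 0.39, uncalled (adjusted p = 0.156). Crot, which attaches medium chains to carnitine in the peroxisome, rose by 0.81 ± 0.12 at 2 h, and Crat, the acetyl transferase, by 0.45 ± 0.11 at 8 h. Slc16a1, the transporter MCT1 through which ketone bodies leave the cell, rose by 1.07 ± 0.13 at 8 h. It stood at 0.21 at 24 h and at -0.33 at 72 h, uncalled (adjusted p = 0.706 and 0.161). Named after their values were seen, Slc16a1 and Mlycd, which breaks down malonyl-CoA, rose at 2 h by 0.73 ± 0.13 and 0.39 ± 0.09, and the mitochondrial deacylase Sirt3 fell by 0.35 at 8 h. The list's median was -0.12, -0.01, 0.08 and 0.11.

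Signs of other cell types and of RNA quality moved with some of these results. At 72 h, when 9 members were called higher, 4 of 9 macrophage markers were called lower (3.05% of all genes), with a list median of -0.67. Their mean deviations were -0.44, -0.37 and -0.10 on the DEHP arrays and 0.49, 0.11 and 0.42 with corn oil, and their part in the result was not tested. Endothelial markers had 0 of 5 called there, against 4.18% of all genes, and a median of -0.41. Their deviations were -0.19, -0.18 and -0.04 with DEHP, below the 0.16, 0.26 and 0.53 with corn oil. White fat markers had 0 of 3 called at any time, against 0.83%, 4.13%, 0.297% and 4.18% of all genes at the 4 times. Their medians were 0.21, 0.21, 0.33 and 0.24. At 24 h their deviations, -0.26, 0.03 and -0.21 with DEHP, lay above the -0.55, -0.47 and -0.57 with corn oil. The part of these lists in the results was not tested. Hepatocyte markers had 1 of 7 called higher at 8 h (1.28% of all genes) and 0 of 7 called at 2, 24 and 72 h. At 8 h the Actb difference of the 3 corn oil arrays was 0.82, 1.46 and 0.59, against 0.71, 0.60 and 0.55 with DEHP. With that difference as a covariate 4 of the 9 calls of 8 h were kept (Slc22a5, Cpt2, Acadm and Acad11), while Acadl, Hadha, Hadhb, Decr1 and Etfdh stood at 0.44, 0.45, 0.44, 0.49 and 0.51 without a call. At 24 h the 6 arrays of that time alone called 4 of the 8 (Acadl, Acadm, Eci1 and Decr1).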

How the data were processed

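Liver RNA of 24 samples was measured on Affymetrix arrays of 45101 probe sets. The authors deposited log2 signals, made with RMA per the submitters' processing notes (version not given in the sources used here). They run from 2.84 to 14.55, with array medians from 6.46 to 6.55, and arrays of a group correlated with r from 0.989 to 0.996 across probe sets. Detection calls were not used here.

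Probe sets were named from the platform annotation: 34958 carried 1 symbol, 932 several and 9211 had no row. The 27 genes have RefSeq symbols equal to the annotation's by gene ID, and 18 have more than 1 probe set. Groups came from the sample titles. One limma 3.58.1 model (R 4.3.3) of the 8 group means over all arrays, with empirical Bayes (16 residual and 6.21 prior degrees of freedom), gave every contrast and F test, with Benjamini-Hochberg adjustment over 18194 genes and a threshold of 0.05. Scripts were tested on simulated data. The members, lists, motifs and naming rule (every member, and up to 3 called genes of the wider list per time by size) were chosen with earlier results of these data known. Same-numbered DEHP and corn oil arrays deviated together with r from -0.35 to 0.14, over 0.1 in 1 of 12 pairs, so the numbers were not taken as pairs. Alternatives were a replicate block, first replicates as a block, a filter on dim genes at the 40th percentile, the mean of all probe sets, a variance trend, median centring, quantile normalization, the Actb covariate, single times, and leaving out arrays.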

Additional observations from a re-analysis of the deposited data

Results flagged for a closer look

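The DEHP effect differed between sampling times in some members, by tests of the difference itself. The F test over the 4 times gave adjusted p of 0.00632 for Slc22a5, 0.0231 for Eci1, 0.0244 for Hadha and 0.0305 for Decr1, and it called 2.08% of all genes. That of Decr1 was not called with the mean of its probe sets (adjusted p = 0.305) or with the Actb covariate (0.0553). The contrast of late (24 and 72 h) with early (2 and 8 h) differences was -1.22 for Slc22a5 and 0.47 for Acadl, 0.45 for Hadha, 0.38 for Acaa2, 0.88 for Eci1 and 0.65 for Decr1. Slc22a5 is the only one of these 6 in which the early difference was the larger. The contrast was chosen with the values of single times known. Its calls of Acadl, Hadha and Acaa2 were lost with the Actb covariate and without both arrays numbered 14. Groups of 3 arrays were too small for a test of single outlying arrays.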

How the results depend on the processing

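No called value changed its sign in any alternative. Of 28 called values of gene and time, 19 kept their call in each of the 6 fits without 1 array. In each other setting 15 kept it, and 14 did so in all. Of 80 uncalled values 24 changed sign somewhere. Apart from the fits without 1 array, 7 uncalled values were called in some setting. Among those fits, the one without DEHP replicate 1 of 24 h also called Acad11 at that time. The count at 2 h (2) was 1 with the mean of all probe sets, and ran from 1 to 2 without single arrays. After median centring it was 3, with Acadm added. The count at 8 h (9) was 4 with the Actb covariate, and that at 24 h (8) was 4 from the 6 arrays of that time alone. The contrast of late with early effects (6 members) called 3 with the Actb covariate, 3 without both arrays numbered 14 and 3 without the 2 arrays that stand apart, a setting chosen after the data were seen. Acadl, Hadha and Acaa2 were the members lost in each of these settings. The contrast called 3 to 7 without single arrays, and 9 after quantile normalization. The count at 72 h (9) ran from 6 from the arrays of that time alone, which lost Acadvl, Acaa2 and Acat1, to 12 after quantile normalization. The F test between times ran from 1 to 5 without single arrays. The replicate block gave 2, 9, 8 and 10 calls at the 4 times. Signal over background was not measured, and Oxct1 and Ucp3 fall below the 40th percentile.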
